A study of Danio rerio with 6 samples.

Results

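The genes described here encode the machinery that copies DNA and the enzymes that supply its building blocks. They were taken from a list of 50 gene symbols, and 43 of them were found as the only symbol of at least 1 probe set, out of 8793 genes measured. Mcm10, prim2, rfc2, rrm2, dhfr, chaf1a and ccne2 were not matched to a probe set and were not analysed here. Of the 43 genes, 19 belong to origin licensing and the replicative helicase, 16 to the replication fork, 4 to nucleotide supply and 4 to chromatin assembly, histone mRNA and cyclin E.

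The tissue was the regenerating caudal fin of larvae of the AB zebrafish strain. Fins had been amputated at 2 days post fertilization and the regrowing tissue was taken 1 day later. In the exposed group, 3 pools of 150 fins came from larvae that swam in 1 uM beclomethasone, a glucocorticoid drug. The control group had 3 pools of 150 fins. The pools are called E1 to E3 and C1 to C3 here, by the replicate numbers of the labels. The series calls the controls vehicle-exposed and the exposed samples' protocol names DMSO as the vehicle, but the protocol given with the control samples is that of a time course of regeneration, in which no vehicle is named. A difference between these experiments therefore cannot be told apart from the exposure. Nothing states whether pools came from separate clutches, so the p-values measure the spread between these pools. Each pool holds whole fin tissue of many cell types.

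Before S phase, the origin recognition complex, Cdc6 and Cdt1 load the MCM helicase ring onto DNA, a step called licensing that geminin restrains. In S phase Cdc45 and the GINS complex join the ring and open the double helix. Polymerase alpha with primase then starts each new strand, replication factor C loads the sliding clamp PCNA, polymerases delta and epsilon extend the strand, and Fen1 and DNA ligase I join the pieces of the lagging strand. Ribonucleotide reductase, thymidylate synthase, thymidine kinase and dUTPase feed this process with deoxynucleotides. Many of these genes are known as targets of the E2F transcription factors in cells that enter the cell cycle, and a regenerating fin grows by cell division in the blastema and in the epidermis.

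Each deposited value was read as a ratio whose divisor is, for most probe sets, the median of that probe set over the 6 arrays. For those probe sets a ratio of 1 is the middle of the 6 pools. In 3015 of 15617 probe sets the median lay below 1, among them that of mcm6 and 1 of mcm3. The ratios carry no expression level, so levels of different genes cannot be compared, the identity of the tissue cannot be checked from levels, and it is unknown whether a probe set with a flat ratio had signal above background. Differences are given as exposed minus control, in log2 units, from the mean log2 ratio of a gene's probe sets. The array medians of the ratios lay between 0.954 and 0.998. Precision is limited by the small number of arrays.

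Most of the replication genes measured fell in beclomethasone-exposed fins, and none rose. The list was chosen with earlier results of these data known, so the shares of all genes given beside its counts are no test of the list. In limma, fitted over all genes, 27 of the 43 passed at an adjusted p under 0.05 as lower and none as higher. At an unadjusted p under 0.05, 36 were lower and none higher, against 1005 lower and 1116 higher of all 8793 genes. Over all 8793 genes, 4.58% passed as lower and 4.24% as higher. The median log2 difference of the 43 genes was -0.69, a 1.61-fold lower ratio, where the median over all genes was 0.02. All 43 differences were below 0, compared with 45.7% of all genes. They ran from -1.57 for orc6 to -0.01 for ccne1. Every exposed pool lay below every control pool for 35 of the 43, against 13.7% of all genes, and 8 of these 35 did not pass limma. At least 2-fold falls that passed were found for 7 of the 43 and for 1.27% of all genes. In whole tissue, fewer dividing cells and less of these RNAs per cell cannot be told apart.

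**Figure D1:**
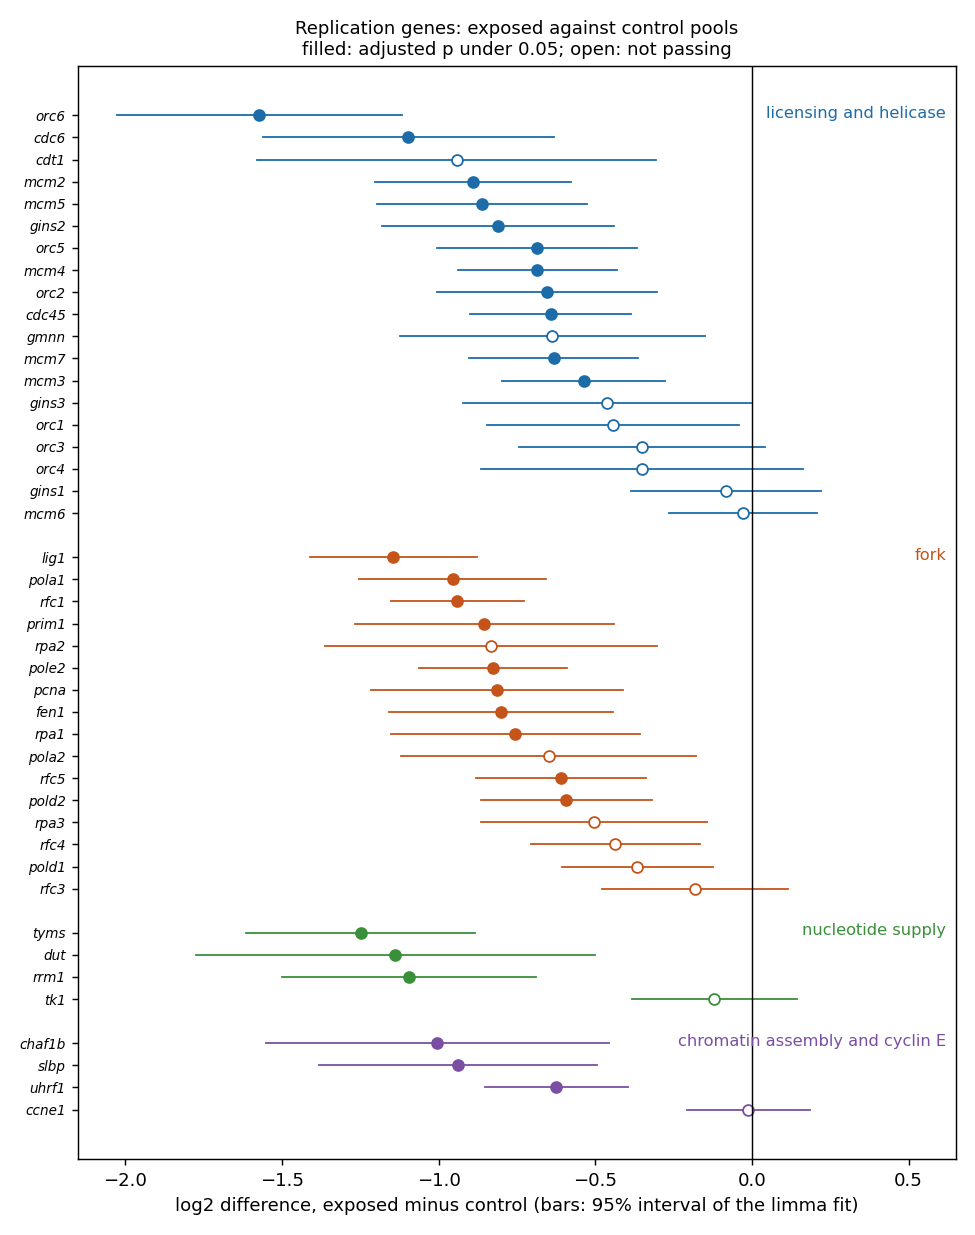
Log2 difference between exposed and control pools (x axis, exposed minus control) for each of the 43 replication genes, ordered within role group, with the 95% interval of the limma fit as a bar. All points lie left of 0. Filled points mark the 27 genes with an adjusted p under 0.05 and open points the 16 that did not pass.

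The size of this count depended on which pools were in the fit. With 1 pool left out, the number of replication genes that fell was 13 without E1, 15 without E2, 16 without E3, 27 without C1, and 15 without C2 or without C3. Each fit had fewer arrays, and the calls over all genes in each were not counted here. A loss of calls over all genes therefore cannot be told apart from a loss particular to the replication genes. None of the replication genes rose in any of these 6 fits. The 10 genes that passed in all 6 of them were orc6, mcm2 and mcm5 of the licensing group, rfc1, lig1, pole2 and pola1 of the fork, tyms and rrm1 of nucleotide supply, and uhrf1. The other 17 lost the call without at least 1 pool. The differences themselves moved less: no called difference moved by over 1.5 times, and 41 of the 43 genes had a difference below 0 in every one of the 6 fits, the exceptions being gins1 and mcm6.

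Among the licensing and helicase genes, 11 of 19 fell, against 4.58% of all genes, with a median log2 difference of -0.64. The largest fall was that of orc6, which encodes the smallest subunit of the origin recognition complex. Its ratios were 0.518, 0.524 and 0.677 in E1 to E3 and 1.32, 2.14 and 1.71 in C1 to C3. The groups were far apart, with the nearest pools, E3 and C1, a factor of 1.95 from each other. The difference was -1.57 ± 0.19 (SE, n = 3 pools per group; adjusted p = 0.00495), a 2.97-fold lower ratio. The other subunits of this complex, which marks the origins, differed less. Orc5 fell by 0.69 ± 0.14 on the log2 scale (adjusted p = 0.0252) and orc2 by 0.65 ± 0.15 (adjusted p = 0.0405). Values were -0.44 ± 0.17 for orc1 (adjusted p = 0.17), -0.35 ± 0.17 for orc3 (adjusted p = 0.259) and -0.35 ± 0.22 for orc4 (adjusted p = 0.399). In orc3 and orc4 the pools of the groups overlapped. The 95% intervals of orc6 (-2.03 to -1.12) and of orc3 (-0.74 to 0.04) did not meet, but the difference between subunits was not tested. Orc5 lost its call without E1, E3 or C3, and orc2 without E1, E2, E3, C2 or C3.

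Of the MCM genes, whose products form the ring of the replicative helicase, mcm2, mcm3, mcm4, mcm5 and mcm7 fell and mcm6 did not pass. The ratios of mcm2 were 0.583, 0.713 and 0.789 in E1 to E3 and 1.21, 1.25 and 1.38 in C1 to C3. Those of mcm5 were 0.571, 0.745 and 0.804 against 1.34, 1.28 and 1.20. In both genes E1 was the lowest pool and the groups did not overlap. The differences were -0.89 ± 0.13 for mcm2 (adjusted p = 0.010) and -0.86 ± 0.14 for mcm5 (adjusted p = 0.0151). Mcm4 had ratios of 0.687, 0.843 and 0.734 in exposed and 1.21, 1.26 and 1.16 in control pools, again without overlap, and fell by 0.69 ± 0.11 (adjusted p = 0.0123). Its call was lost without E3. Mcm7 fell by 0.63 ± 0.12 (adjusted p = 0.0202, lost without E1, E3 or C2).

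The value of mcm3 depended on the probe set. On its first probe set the ratios were 0.634, 0.714 and 0.753 in exposed and 1.25, 1.42 and 1.51 in control pools, a difference of -0.99 ± 0.12 (adjusted p = 0.0059 over all probe sets). On the other probe set, whose median ratio over the arrays was 0.433, they were 0.422, 0.469 and 0.428 in E1 to E3. In C1 to C3 they were 0.437, 0.428 and 0.541, and the difference was -0.09 ± 0.12 (adjusted p = 0.79). The former separates the groups and the latter does not. Their mean gave -0.54 ± 0.11 (adjusted p = 0.0286, lost without E1, E2, E3, C2 or C3), so the value of this gene is uncertain in size. Mcm6 was nearly flat, with ratios of 0.871, 0.991 and 1.01 in E1 to E3, against 1.02, 0.93 and 0.975 in C1 to C3. Its 1 probe set had a median ratio below 1 over the arrays. The gene was therefore absent from the fit that left such probe sets out. Its difference was -0.03 ± 0.10 (adjusted p = 0.908, 95% interval -0.26 to 0.21), and it was 0.04 without E1 and 0.006 without C1. The intervals of mcm2 (-1.20 to -0.58) and of mcm6 did not meet, while the difference between the genes was not tested.

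**Figure D2:**
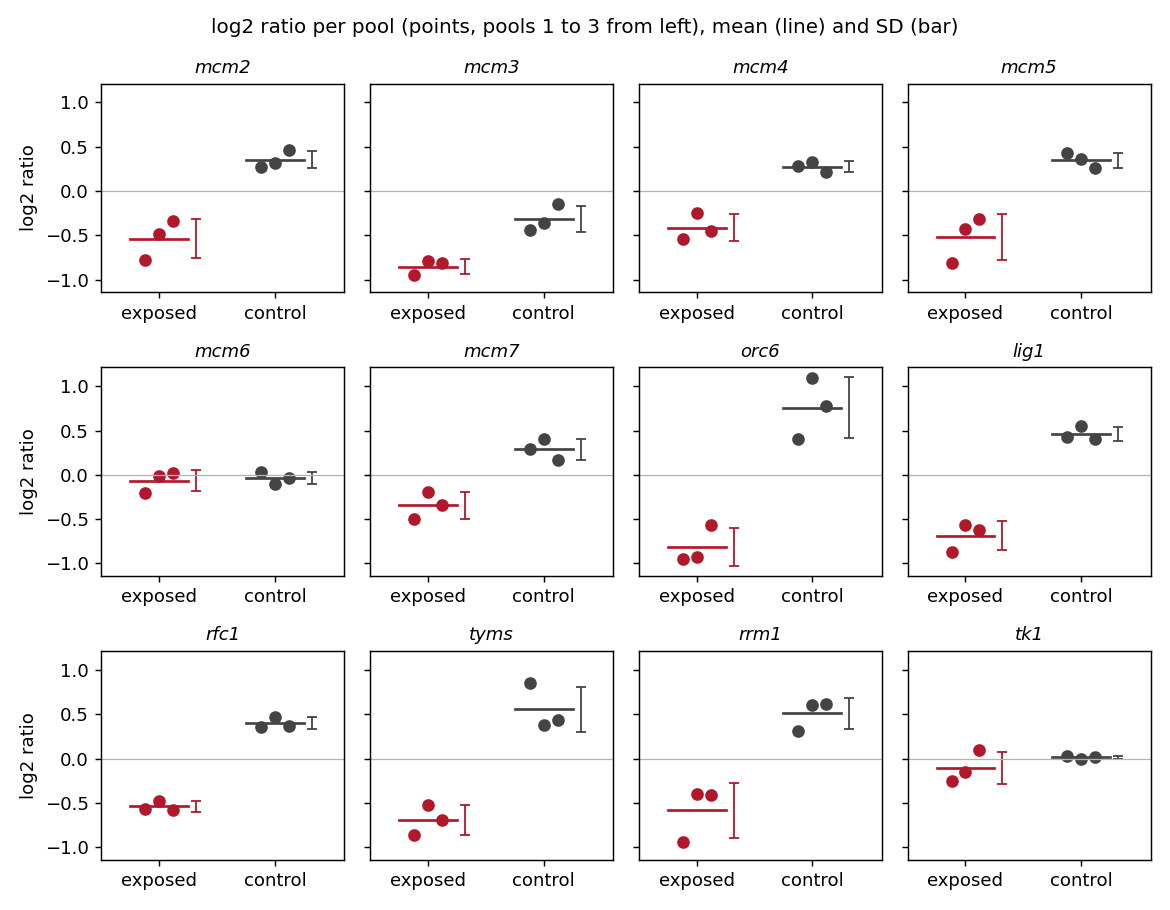
Log2 ratio (y axis) of 12 genes in each pool (points, pools 1 to 3 from left to right in each group), with the group mean as a line and the SD (n = 3 pools) as a bar. In 10 panels all exposed pools lie below all control pools, while the pools of mcm6 and tk1 overlap near 0.

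Of the factors in the licensing group that load the ring and start it, cdc6, cdc45 and gins2 fell. Cdc6, the loader ATPase, had ratios of 0.548 to 0.853 in E1 to E3, against 1.15 to 1.58 in C1 to C3 and fell by 1.1 ± 0.20 (adjusted p = 0.0199, lost without E1, E2, C2 or C3). Cdc45, a part of the active helicase, had ratios of 0.80, 0.799 and 0.846 in exposed and 1.15, 1.44 and 1.24 in control pools. Its exposed pools lay close together and below every control pool, and it fell by 0.64 ± 0.11 (adjusted p = 0.0165, lost without E1, E2 or E3). Of the GINS genes, whose products bind Cdc45 and the ring, gins2 fell by 0.81 ± 0.16 (adjusted p = 0.0237, lost without E1, E2, E3 or C3). The value of gins3 was -0.46 ± 0.20 (adjusted p = 0.204) and that of gins1 -0.08 ± 0.13 (adjusted p = 0.768, or 0.04 on the log2 scale without E1). The pools of gins1 and gins3 overlapped between the groups. A further GINS gene, gins4, belongs to a comparison list described below. It fell by 0.89 ± 0.17 (adjusted p = 0.0227, lost without E1, E2, E3, C2 or C3).

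Cdt1, the partner of Cdc6 in loading, and its inhibitor gene gmnn, which encodes geminin, did not pass. The ratios of cdt1 were 0.937, 0.831 and 0.909 in exposed and 1.06, 2.24 and 2.11 in control pools. C2 and C3 stood well above C1, which lay near the exposed pools. The difference was -0.94 ± 0.27 (adjusted p = 0.0789), and it passed when C1 was left out, with a value of -1.29. Gins3 also passed without that pool. Gmnn had a value of -0.64 ± 0.21 (adjusted p = 0.11) with exposed ratios between 0.545 (pool 1) and 0.968 (pool 3), below the lowest control ratio of 1.03.

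Of the fork genes, 10 of 16 fell, against 4.58% of all genes, with a median log2 difference of -0.78. In 15 of the 16 every exposed pool lay below every control pool, against 13.7% of all genes. The fall of smallest p was that of rfc1, the large subunit of the clamp loader. Its ratios were 0.676, 0.721 and 0.67 in exposed and 1.28, 1.39 and 1.30 in control pools. The pools of each group lay close together, and the difference was -0.94 ± 0.09 (adjusted p = 0.00205). Of the other clamp loader genes, rfc5 had ratios of 0.712, 0.825 and 0.877 in exposed and 1.29, 1.12 and 1.27 in control pools and fell by 0.61 ± 0.12 (adjusted p = 0.0216, lost without E1, E2 or C3). Rfc4 had a value of -0.44 ± 0.12 (adjusted p = 0.0612) and rfc3 of -0.18 ± 0.13 (adjusted p = 0.457, 95% interval -0.48 to 0.12). The ratios of rfc3, the fork gene with the smallest difference, were 0.962, 0.909 and 1.04 in E1 to E3, against 1.26, 1.1 and 0.952 in C1 to C3, and its groups overlapped. The probe sets of rfc4 differed in call. On one the ratios were 0.735, 0.866 and 0.866 in exposed and 1.22, 1.15 and 1.13 in control pools (difference -0.51 ± 0.11, adjusted p = 0.0372 over all probe sets). On the other they were 0.976, 1.01 and 0.716 against 0.986, 1.03 and 1.47, and the groups overlapped (-0.36 ± 0.20, adjusted p = 0.383).

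Pcna, the clamp itself, had ratios of 0.539, 0.828 and 0.795 in exposed and 1.27, 1.29 and 1.17 in control pools. E1 was much lower than the other exposed pools, and the difference was -0.81 ± 0.17 (adjusted p = 0.0306, lost without E3, C2 or C3). The DNA ligase gene lig1 had ratios of 0.547, 0.677 and 0.65 in exposed and 1.34, 1.46 and 1.32 in control pools. Its groups were separated by a factor of 1.95 at their nearest pools, and it fell by 1.14 ± 0.11 (2.21-fold; adjusted p = 0.00222). The flap nuclease gene fen1, which acts before the ligase, fell by 0.80 ± 0.15 (adjusted p = 0.0217, lost without E1, E2, C2 or C3).

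Genes of all 3 replicative polymerases fell. Pola1, the catalytic subunit of polymerase alpha, had ratios of 0.576, 0.703 and 0.752 in exposed and 1.25, 1.42 and 1.25 in control pools. Pole2, an accessory subunit of polymerase epsilon, had ratios of 0.689, 0.761 and 0.766 in exposed and 1.23, 1.42 and 1.27 in control pools. In both the groups were well apart and E1 was lowest. The differences were -0.96 ± 0.13 for pola1 (adjusted p = 0.00676) and -0.83 ± 0.10 for pole2 (adjusted p = 0.00495). The primase gene prim1 fell by 0.85 ± 0.18 (adjusted p = 0.0286, lost without E3, C2 or C3), and pold2, an accessory subunit of polymerase delta, by 0.59 ± 0.12 (adjusted p = 0.0243, lost without E1, E2, C2 or C3). The catalytic subunit gene pold1 had a value of -0.37 ± 0.10 (adjusted p = 0.0733), with neither of its probe sets passing (-0.50 and -0.23). Pola2 had a value of -0.65 ± 0.20 (adjusted p = 0.0974) and passed without E3 (-0.86).

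Replication protein A coats single-stranded DNA at the fork. Of its genes, rpa1 fell by 0.76 ± 0.17 (adjusted p = 0.0376, lost without E1, E2, E3, C1 or C2). Rpa2 had a value of -0.83 ± 0.23 (adjusted p = 0.0658) and rpa3 of -0.50 ± 0.15 (adjusted p = 0.0939). None of these 3 genes overlapped between the groups. The exposed ratios of rpa2 were spread widely, from 0.515 in pool 1 to 0.938 in pool 2, and those of rpa3 from 0.612 in pool 1 to 0.922 in pool 3.

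**Figure D3:**
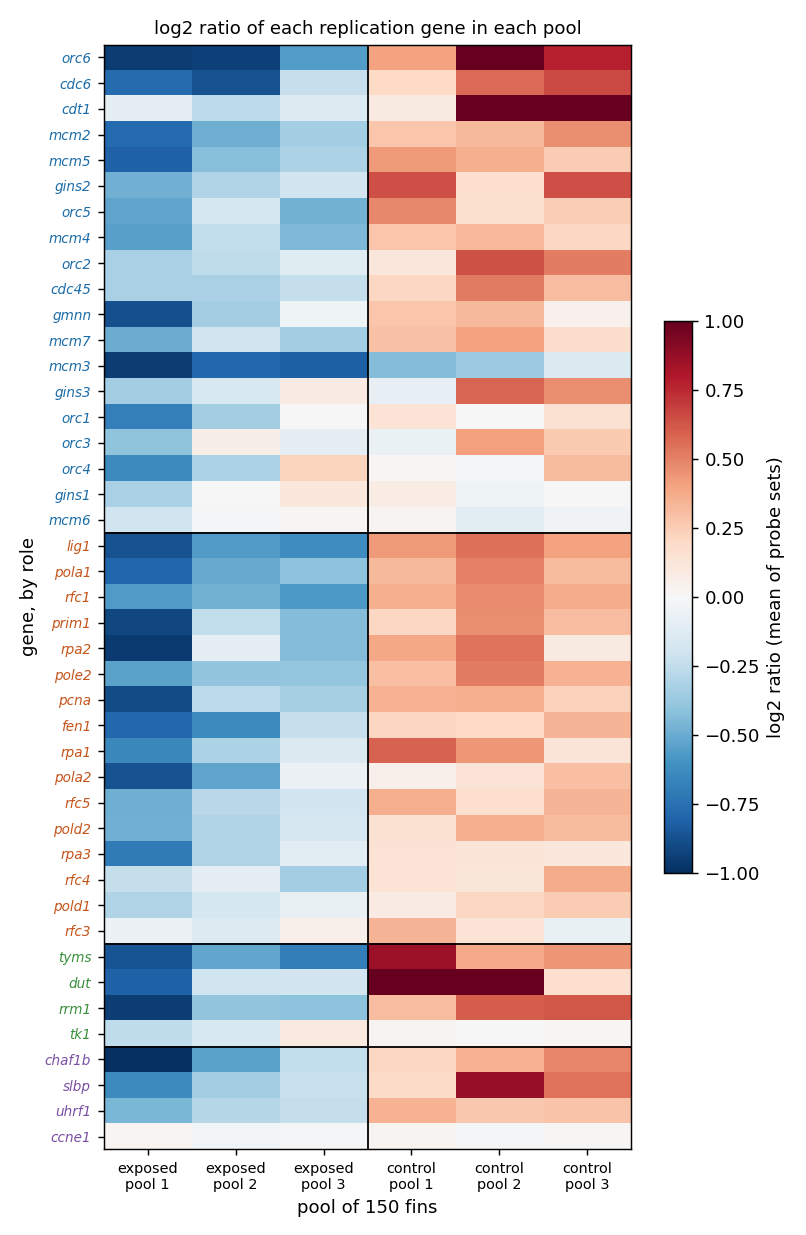
Heat map of the log2 ratio of each of the 43 replication genes (rows, by role group, labels in the colours of the groups) in each of the 6 pools (columns). Blue is below and red above a log2 ratio of 0, on a colour scale from -1 to 1 whose end colours also hold the values beyond it. Exposed pools are mostly blue and control pools mostly red, with E1 the darkest blue column, while mcm3 is blue in all 6 pools because of the probe set with a median ratio of 0.433.

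Of the 4 nucleotide supply genes measured, 3 fell, each by over 2-fold. Over all genes, 4.58% fell, and 1.27% fell by at least 2-fold. Tyms encodes thymidylate synthase, which makes the thymine nucleotide. Its ratios were 0.549, 0.698 and 0.621 in exposed and 1.81, 1.30 and 1.36 in control pools. C1 was highest and no exposed pool came near the controls, with a difference of -1.25 ± 0.16 (2.38-fold; adjusted p = 0.00513). Rrm1, the large subunit of ribonucleotide reductase, had ratios of 0.522, 0.76 and 0.751 in exposed and 1.24, 1.52 and 1.54 in control pools. E1 was again lowest, and the difference was -1.09 ± 0.17 (2.13-fold; adjusted p = 0.0123). Dut, whose enzyme removes dUTP from the nucleotide pool, had ratios of 0.572, 0.873 and 0.874 in exposed and 2.06, 2.01 and 1.13 in control pools. C3 lay far below the other control pools and near the exposed ones. Dut fell by 1.14 ± 0.27 (2.20-fold; adjusted p = 0.0455), and the call was lost without E1, E2, E3, C1 or C2.

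The gene of the thymidine salvage kinase, tk1, did not pass. Its ratios were 0.839, 0.9 and 1.07 in E1 to E3, against 1.02, 1 and 1.01 in C1 to C3, so the groups overlapped. The difference was -0.12 ± 0.11 (adjusted p = 0.607, 95% interval -0.38 to 0.14), and neither of its probe sets passed (-0.23 and -0.009). The interval did not meet that of tyms (-1.61 to -0.88), while the difference between these genes was not tested.

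Of the 4 genes of chromatin assembly, histone mRNA and cyclin E, 3 fell, against 4.58% of all genes. Uhrf1, which guides maintenance methylation onto new DNA, had mean ratios of 0.729, 0.823 and 0.847 in exposed and 1.27, 1.20 and 1.22 in control pools. The groups were apart and the difference was -0.62 ± 0.10 (adjusted p = 0.0118). Its probe sets differed in size: on one the exposed ratios were 0.568, 0.698 and 0.736 against 1.26, 1.37 and 1.44 (-1.03 ± 0.13, adjusted p = 0.00658 over all probe sets), and on the other 0.935, 0.97 and 0.975 against 1.28, 1.05 and 1.03 (-0.21 ± 0.12, adjusted p = 0.362). Slbp, which binds the stem-loop of histone mRNAs, had ratios of 0.644, 0.786 and 0.856 in exposed and 1.14, 1.83 and 1.46 in control pools. It fell by 0.94 ± 0.19 (adjusted p = 0.0265, lost without E1, E2, E3, C2 or C3). Chaf1b, a subunit of the factor that places histones behind the fork, had ratios of 0.435, 0.691 and 0.845 in exposed and 1.15, 1.27 and 1.40 in control pools. Its exposed pools were spread over a factor of 1.94, and it fell by 1.00 ± 0.23 (adjusted p = 0.0421, lost without E1, E2, C2 or C3).

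Ccne1, the gene of cyclin E1, which drives entry into S phase, was flat. Its ratios were 1.01, 0.983 and 0.992 in E1 to E3, against 1.02, 0.984 and 1.01 in C1 to C3, and the difference was -0.01 ± 0.08 (adjusted p = 0.952, 95% interval -0.21 to 0.18). The range of its log2 ratios over the 6 arrays was 0.055, and only 0.0341% of all genes had a smaller range. For mcm6 the range was 0.23, with a smaller one in 11.7% of genes. Whether these probe sets had signal above background is unknown.

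The exposed pools were not alike. E1 was the lowest of the 3 exposed pools in 36 of the 43 replication genes, compared with 47.9% of all genes, and E3 was the highest in 28, or 65.1%, compared with 40.6% of all genes. The median log2 ratio of the replication genes was -0.64, -0.30 and -0.23 in E1 to E3 and 0.21, 0.36 and 0.31 in C1 to C3. Every exposed median lay below every control median. Over all genes the corresponding medians lay between -0.06 and -0.01.

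Markers of other tissues also differed between pools. Of 19 skeletal muscle genes, 1 passed as higher and none as lower, where 4.24% of all genes passed as higher. All 19 log2 differences were above 0, with a median of 1.20. At an unadjusted p under 0.05 in limma, 14 were higher, where 1116 of all 8793 genes were. In 9 of the 19 muscle genes every exposed pool lay above every control pool, against 16.0% of all genes. Their median log2 ratios were 0.71, 0.07 and 0.05 in exposed and -1.61, -0.03 and -1.10 in control pools. The muscle median was thus highest in E1, the pool whose replication median was lowest. Among the control pools the order was the other way: C2 had the highest median of both lists and C1 the lowest of both. Of 13 liver, yolk and plasma protein genes, 1 passed as higher, 11 lay above without overlap, and the medians were 1.09, 2.64 and 0.04 in exposed and -0.61, -0.52 and -0.21 in control pools. All 13 log2 differences were above 0, with a median of 1.56, and 8 were higher at an unadjusted p under 0.05 in limma. With E1 and E2 left out, a choice made after seeing the data, the median log2 difference of the replication genes was -0.59. That fit had 1 exposed pool, so no count of passing genes is given for it.

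Over all genes, 4.58% fell and 4.24% rose. Among the other lists, 7 of 15 epidermal genes fell, with a median log2 difference of -0.51. In 11 of the 15 every exposed pool lay below every control pool, against 13.7% of all genes, and in 1 above. Epidermal medians were -0.26, -0.23 and -0.42 in exposed and 0.20, 0.03 and 0.16 in control pools. As for the replication genes, every exposed median lay below every control median. Pan-leukocyte medians were -0.13, 0.006 and -0.07 in exposed and -0.22, 1.00 and 1.14 in control pools, with 1 of 7 genes higher and none lower. Of the 7 differences, 6 were below 0, with a median of -0.63, where 45.7% of all genes were below 0. At an unadjusted p under 0.05 in limma, 3 of these leukocyte genes were lower and 1 higher. Of all 8793 genes, 1005 were lower and 1116 higher at that threshold. Of 7 macrophage genes 2 fell, of 6 neutrophil genes 1 rose and of 7 erythrocyte genes none passed. Differences below 0 were found for 5 macrophage genes (median -0.67), 5 neutrophil genes (median -0.24) and 1 erythrocyte gene (median 0.36). Of 9 notochord, neural and other fin fold genes 2 rose, with a median log2 difference of 0.47. C1, the control pool with the lowest replication median, also had the lowest control median in every marker list except the epidermal one. Its epidermal median, 0.20, was the highest of the control pools. C3 was likewise low in muscle genes. The part of these tissues in the replication result was not tested.

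**Figure D4:**
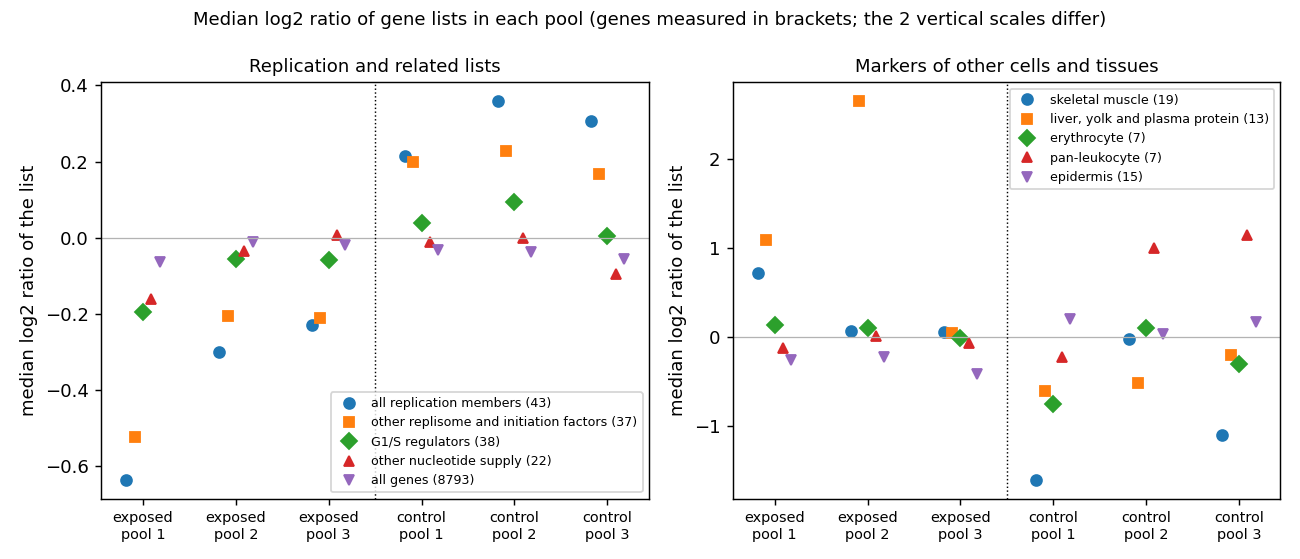
Median log2 ratio of gene lists (y axis) in each of the 6 pools (x axis), for replication and related lists on the left and for markers of other tissues on the right, with the number of genes in brackets. The replication genes lie below 0 in all exposed and above 0 in all control pools, from -0.64 to 0.36, while the muscle and liver lists span more than 2 units.

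Further genes of the replication machinery came from a comparison list that, like the members, was chosen with earlier results of these data known. Their counts are therefore no separate support for the result above. Of 37 measured, 16 fell and none rose, with a median log2 difference of -0.49, and 22 lay below the controls without overlap. Over all genes, 4.58% fell and 13.7% lay below without overlap. The genes of smallest p were cdca7a (-1.11 ± 0.12, adjusted p = 0.00284) and cdca7b (-0.95 ± 0.11, adjusted p = 0.00443), related genes linked to chromatin remodelling and DNA methylation, the checkpoint kinase gene chek1 (-1.06 ± 0.12, adjusted p = 0.00382) and chtf18 (-0.83 ± 0.12, adjusted p = 0.00875), part of a further clamp loader. The ratios of chek1 were 0.674, 0.729 and 0.612 in exposed and 1.27, 1.36 and 1.58 in control pools, so the groups were clearly apart. These 4 genes passed without any 1 array. The number of genes of this list that fell was 7 without E1 or C2, 8 without E2 or C3 and 10 without E3.

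A second comparison list held 22 measured genes of nucleotide metabolism outside the members, such as kinases and de novo synthesis enzymes. None fell and 1 rose, which is 4.55% of the list beside 4.24% of all genes, with a median of 0.02. At an unadjusted p under 0.05 there were 4 lower and 2 higher in limma, where 1005 of all 8793 genes were lower and 1116 higher. The gene that rose was mthfd2, a mitochondrial enzyme of folate metabolism, with ratios of 1.12, 1.14 and 1.14 in exposed and 0.772, 0.883 and 0.867 in control pools. Its groups did not overlap, and the difference was 0.43 ± 0.09 (adjusted p = 0.0346), a call lost without any 1 of the 6 arrays. Without C1, 2 genes of this list fell. Among those that did not pass, the smallest p belonged to cmpk, a nucleotide kinase gene (-0.62 ± 0.15, adjusted p = 0.0501), to cad, which starts pyrimidine synthesis (-0.41 ± 0.11, adjusted p = 0.0648), and to impdh2, an enzyme of guanine nucleotide synthesis (0.39 ± 0.11, adjusted p = 0.0858).

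The share of all genes that fell was 4.58%. Of 38 regulators of the passage from G1 to S phase, 6 fell and none rose, with a median of -0.19. They were the kinase subunit gene cks1b (-1.25 ± 0.10, adjusted p = 0.00141), the transcription factor genes e2f3 (-0.84 ± 0.13, adjusted p = 0.0105) and mybl2b (-1.24 ± 0.22, adjusted p = 0.0173), the cyclin A gene ccna2 (-1.04 ± 0.19, adjusted p = 0.0201), lin52 and skp2. E2f3 had ratios of 0.697, 0.692 and 0.838 in exposed and 1.16, 1.43 and 1.41 in control pools, without overlap. The other E2F genes measured had values of -0.41 (e2f4, adjusted p = 0.0866), -0.73 (e2f8, adjusted p = 0.0989), -0.84 (e2f7, adjusted p = 0.201), -0.09 (e2f6) and 0.03 (e2f5). The value was -0.001 ± 0.10 for ccnd1, the cyclin D1 gene (adjusted p = 0.995), and for the CDK inhibitor gene cdkn1ca it was 0.66 ± 0.21 (adjusted p = 0.104). For cdkn1bb, another CDK inhibitor gene, it was -0.13 ± 0.13 (adjusted p = 0.64). Cks1b and e2f3 kept their calls without any 1 array, mybl2b lost it without E1, E2 or E3, and ccna2 without E1, E2, C2 or C3. Lin52 lost it without E1, E3, C2 or C3, and skp2 without E1, E2, E3, C2 or C3. The number of these regulators that fell was 2 without E1, 3 without E2, E3 or C2, 4 without C3 and 10 without C1.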

How the data were processed

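Per the labels' protocols, RNA of each pool of larval fins was amplified into biotin-labelled cRNA with an Affymetrix kit. The deposited table was read as linear ratios. The submitters' processing notes name GCRMA, which corrects background and summarises probes. No source used here describes the division that made the ratios: the median of the 6 values was 1 (tolerance 1e-06) for 12601 of 15617 probe sets and below 1 for 3015. Signal over background is therefore unknown.

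Log2 was taken with no pseudocount. The 115 control probe sets were left out. The array annotation gave 1 symbol for 10795 of 15502 probe sets, several for 135 and none for 4572, and updating through Entrez numbers changed 1 symbol. Probe sets with 1 symbol were averaged into 8793 genes. The groups were compared by lmFit and eBayes of limma 3.58.1 under R 4.3.3, with two-sided p-values adjusted by Benjamini-Hochberg over all 8793 genes and a threshold of 0.05, and the fit was tested on simulated data. Probe set values were fitted likewise over all 15502 probe sets. Exact permutation tests of 3 against 3 arrays cannot go below 0.1 (two-sided) and were not used.

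The members and the comparison lists were chosen with earlier results of these data known. Each measured member is named. Values in every pool are given for the 5 members of smallest p in the licensing and fork groups, for the 3 of smallest p in the other role groups, for the member with the highest difference in each, and for members whose probe sets differed in call. Cdt1 and pcna were added after their values were seen. Of each comparison list, up to 4 passing genes of smallest p are named, with any that passed in the opposite direction. Gins4, lin52, skp2, the other E2F genes, ccnd1, cdkn1ca, cdkn1bb, cmpk, cad and impdh2 were added after their values were seen. The alternatives were a pseudocount of 0.1, array weights, quantile normalization, centring of arrays, leaving out each array, robust fitting with a variance trend, a replicate block, probe sets as the unit, the most variable probe set per gene, probe sets with a median below 1 left out and a threshold of 0.01. Leaving out both E1 and E2 was added after the values were seen. A planned search of promoter motifs was not made.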

Additional observations from a re-analysis of the deposited data

How the results depend on the processing

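The replication genes kept a median log2 difference below 0 under every alternative, from -0.83 without E3 to -0.59 without E1 and E2. None of them passed as higher under any alternative with more than 1 exposed pool. With 1 array left out, the median lay between -0.83 and -0.62. The number of replication genes that fell was 25 to 31 under quantile normalization, centring, array weights, robust fitting with a variance trend, a pseudocount of 0.1, probe sets as the unit, the most variable probe set per gene, and without probe sets of a median below 1, against 27 as reported. With 1 array left out the number that fell was 13 to 27 for all replication genes, 4 to 13 for licensing and helicase, 5 to 9 for the fork, 2 to 3 for nucleotide supply, 1 to 3 for chromatin assembly and cyclin E, 7 to 16 for the other replisome and initiation factors, 2 to 10 for the G1 to S phase regulators and 0 to 2 for the other nucleotide supply genes, of which 0 rose. These fits had fewer arrays. Calls over all genes were not counted in them or under the other alternatives.

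At a threshold of 0.01 the number that fell was 6 for all replication genes, 1 for licensing, 4 for the fork, 1 for nucleotide supply, 0 for chromatin assembly and cyclin E, 4 for the other replisome factors and 1 for the G1 to S phase regulators, and 0 of the other nucleotide supply genes rose. Calls over all genes at this threshold were not counted here. A loss of calls over all genes therefore cannot be told apart from one particular to these lists. Without E1 and E2 the fit had 1 exposed pool, which is assumed to vary like the controls. No counts are given for that fit. Of the other nucleotide supply genes, 2 fell with array weights and 1 each with the most variable probe set per gene, with probe sets as the unit and without probe sets of a median below 1, and 2 rose with a variance trend; the cause was not tested.

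Mcm6 had no value without probe sets of a median below 1. Its difference was 0.028 with array weights and 0.055 without E1 and E2, and it lay between -0.069 and 0.040 with 1 array left out. That of gins1 lay between -0.17 and 0.042 with 1 array left out and was 0.096 without E1 and E2, where orc4 was 0.12 and tk1 0.078. None of these passed in the fits with more than 1 exposed pool.

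With the replicate number as a block, 16 replication genes fell, 5 of them in licensing, and 9 of the other replisome factors, while 0 of the other nucleotide supply genes rose. Whether the numbers pair the pools is not known. Deviations from the group means correlated across genes at -0.22, -0.08 and 0.08 between same-numbered pools. The strongest correlation, 0.26, was between E1 and C2. These values cannot decide pairing, since the deviations within a group of 3 pools sum to 0. The planned promoter motif shares were not run. Signal over background is unknown, so flat probe sets (ccne1, mcm6) show no more than a flat ratio.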
